A study of Drosophila melanogaster with 14 samples.

Results

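Mesodermal nuclei from embryos set up to degrade the Hox protein Ubx were compared with control nuclei across all genes. The comparison used 6 of the 14 RNA libraries of the study, chosen by their labelled genotype: 3 degraded and 3 control libraries, all from Drosophila melanogaster embryos at stages 14-17. The control genotype was twi-INTACT; UAS-Nslmb,GFP-Ubx, and the degraded genotype was twi-INTACT, Mef2>Nslmb, GFP-Ubx. Both groups therefore carried the GFP-tagged Ubx, the Nslmb transgene and the twi-driven nuclear tag, and they differed in the Mef2 driver. INTACT captures the tagged nuclei of a chosen cell type on beads from homogenised embryos, here those in which twi drove the tag. Nslmb joins the F-box part of the ubiquitin ligase subunit Slmb to a nanobody against GFP, so that a GFP-tagged protein is marked for the proteasome wherever Nslmb is made. The Mef2 driver acts in the differentiating mesoderm and muscle.

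Ubx is a homeodomain transcription factor that gives segments of the posterior thorax and anterior abdomen their identity. In the mesoderm it is known for patterning the muscles, the heart and the midgut visceral muscle, both by activating targets and by repressing genes of other fates. Because Nslmb acts on protein, the mRNA of Ubx does not report on the degradation, and no value here checks it.

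Assigned counts ranged from 24314883 to 31033963 in the controls and from 24391565 to 28150883 in the degraded libraries. Whether the replicates came from separate embryo collections is not in the labels, so each p-value describes only the spread among these 6 libraries and may reflect technical spread. Levels are CPM, counts scaled to a common normalised library size, and changes are log2 values, degraded minus control, ± SE, with n = 3 in each group. Adjusted p-values are from the quasi-likelihood test of edgeR, adjusted by Benjamini-Hochberg over 11641 genes, and a gene is named as called where the value is under 0.05.

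The control libraries were not alike. Genes of the mitochondrial genome took 5.95, 3.57 and 1.39% of the counts in controls 1, 2 and 3, against 1.06, 0.956 and 0.874% in degraded libraries 1, 2 and 3. Ribosomal protein genes took 4.73, 4.13 and 2.35% in the controls and 2.58, 2.55 and 2.0% in the degraded libraries. On the first principal component, which held 52.1% of the variance, controls 1 and 2 lay at -35.9 and -37.6, control 3 at -1.43 and the degraded libraries at 15.6, 23 and 36.3. Control 3 thus lay between the other controls and the degraded libraries, and many of the gene groups below are also given against control 3 alone. Sex, embryo age within the stage window and nuclear purity are not given in the labels, and their part in any result was not tested.

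**Figure D1:**
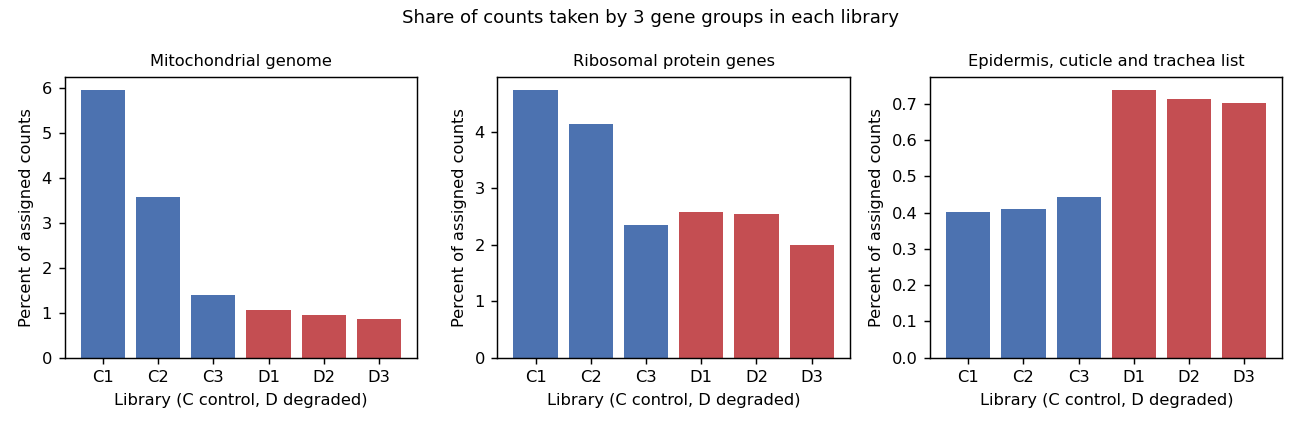
Percent of assigned counts taken by the mitochondrial genome, the ribosomal protein genes and the epidermis, cuticle and trachea list in each of the 6 libraries (C1 to C3 control, D1 to D3 degraded; 1 bar per library). Control 3 is close to the degraded libraries in the first and second panels and close to the other controls in the third, where controls hold 0.402 to 0.444% and degraded libraries 0.702 to 0.736%.

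The Ubx gene (FBgn0003944) lies on 3R at 16656623 to 16734426, minus strand, in Ensembl release 115 annotation of BDGP6, which is the source of all coordinates here. Ubx mRNA stood at 68.9, 60.3 and 71.0 CPM in the controls and at 62.7, 79.1 and 89.8 CPM in the degraded libraries. The groups overlapped, and the change of 0.21 ± 0.15 was not called (adjusted p = 0.447). The other Hox genes of the trunk also kept overlapping levels: abd-A changed by -0.05 ± 0.13, Abd-B by 0.16 ± 0.13 and Antp, whose span other genes overlap by 60.3% so that its value is uncertain, by -0.12 ± 0.13. Of 15 Hox genes and cofactors tested, 0 were called by edgeR or limma-voom and 1 by DESeq2, with 4 at an unadjusted p under 0.05. Their changes ran from -0.12 to 0.50 with a median of 0.19, beside a median of -0.01 over all genes tested.

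Across the transcriptome, 520 of 11641 genes tested (4.47%) were called, 401 of them higher (3.44%) and 119 lower (1.02%) in the degraded libraries. At an unadjusted p under 0.05 there were 2884 genes. All 3 degraded libraries lay beyond every control library for each of the 520 calls. Over all 11641 genes tested they lay above every control for 1854 and below every control for 1387. Lack of overlap alone therefore does not set the called genes apart. The number of calls depended on single libraries: it was 1696 without control 3, 239 without control 1 and 46 without control 2. It was 316, 66 and 164 without degraded libraries 1, 2 and 3. With control 3 as the only control it was 31, of which 27 were among the 520. Each of the 520 genes kept its direction in these fits, which the lack of overlap between the groups all but fixed in advance. Of the called genes, 172 rose and 59 fell by at least 1 on the log2 scale.

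**Figure D2:**
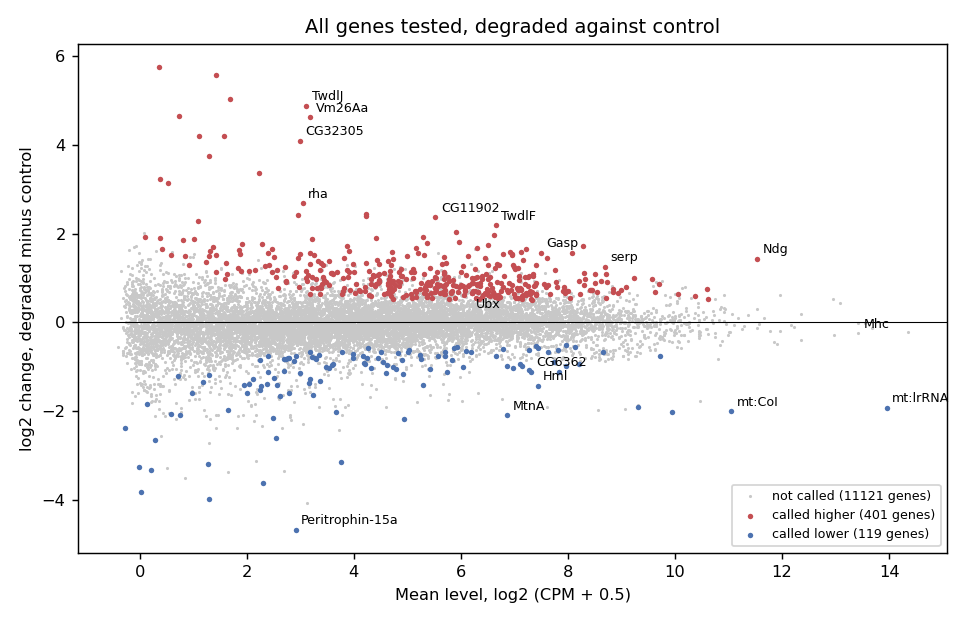
Change of each of the 11641 genes tested (log2, degraded minus control) against its mean level over both groups (log2 of CPM + 0.5). Called genes are coloured, 401 higher and 119 lower; the cloud of large rises at low level on the left includes the genes around Vm26Aa, and mt:lrRNA is the called gene at the highest level.

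Many genes of the epidermis, the cuticle and the trachea rose. These tissues come from ectoderm, which secretes the chitin-based apical matrix of the larval cuticle and of the tracheal tubes. Of 35 genes tested on an epidermis, cuticle and trachea list, 14 rose and 0 fell, with a median change of 0.81, and 33 of the 35 changes were positive. Against control 3 alone the median was 0.63 and 29 changes were positive, with 0 members called in that fit, and 5 were called without control 2 and 4 without degraded library 2. The list's summed share of counts in the 2 groups did not overlap.

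TwdlJ, a Tweedle family cuticle protein gene at 26629918 to 26630825 on 3R, stood at 0.426, 0.608 and 0.553 CPM in the controls and at 21.2, 14.1 and 12.1 CPM in the degraded libraries. It went from near the detection limit to a clear level in every degraded library, a rise of 4.88 ± 0.29 (adjusted p = 0.000234). It was among 17 named genes called in every fit that left out 1 library and among 14 called against control 3 alone. TwdlF went from 27.1, 36.9 and 44.0 CPM to 191, 142 and 161 CPM, a rise of 2.19 ± 0.20 (adjusted p = 0.00188). TwdlC, at 14.9, 14.7 and 18.2 CPM in the controls, reached 97.5 CPM in degraded library 1 and 43.1 and 42.3 CPM in the other two, a rise of 1.94 ± 0.33 (adjusted p = 0.0225). The family as a whole was looked at after these values were seen: 10 of 25 Tweedle genes tested were called higher and 0 lower, with a median of 0.83, and of 0.86 against control 3 alone.

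Some genes of chitin binding and deacetylation rose. Gasp, which encodes a chitin-binding protein of the tracheal lumen, stood at 91.7, 81.7 and 98.1 CPM in the controls and at 311, 247 and 249 CPM in the degraded libraries. Every degraded library lay far above every control, and the rise was 1.57 ± 0.14 (adjusted p = 0.00177). The chitin deacetylase gene serp, whose product limits tracheal tube length, went from 263, 210 and 259 CPM to 671, 566 and 511 CPM, a rise of 1.26 ± 0.15 (adjusted p = 0.00818). Its partner verm rose by 0.97 ± 0.14 (adjusted p = 0.0142). Other genes of this kind, picked after their values were seen, were Cda4 with 1.55 ± 0.17, obst-A with 1.52 ± 0.21 and obst-B with 1.35 ± 0.15. In all, 9 of 26 chitin deacetylase, chitin-binding obstructor, chitinase and chitin synthesis genes tested were called higher and 0 lower (median 0.41, and 0.27 with 0 called against control 3 alone). The other 17 were not called and ran from -3.29 for obst-G to 0.57 for obst-E, with 7 negative values. Among them were the chitin synthase gene kkv at 0.43 ± 0.19 and every chitinase gene tested except Cht7, which rose by 0.97 ± 0.13 (adjusted p = 0.0109).

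Membrane proteins with a zona pellucida domain, which tie the epidermal surface to the forming cuticle, were a further group seen only after the values were known. Of 12 tested, 10 were called higher and 0 lower, with a median of 1.03 (0.78 against control 3 alone). Against control 3 alone 0 of them were called, and without control 2 also 0; without degraded library 2 it was 1. Among them dyl stood at 44.5, 84.2 and 79.2 CPM in the controls and at 158, 220 and 249 CPM in the degraded libraries, a rise of 1.59 ± 0.26 (adjusted p = 0.021 by edgeR). Its lowest degraded value lay well above its highest control value. Of the cuticle protein genes named Cpr, Ccp84, Lcp, Edg, Pcp and Acp65, 7 of 78 tested were called higher and 0 lower by edgeR, with a median of 0.33. DESeq2 called 14 of them higher and 3 lower, and edgeR called 0 against control 3 alone or without control 2. Among genes of tyrosine and melanin metabolism 5 of 18 were called higher and 0 lower, led by yellow-e at 1.76 ± 0.22 and amd at 1.67 ± 0.21. Their median was 0.33, and 0.31 against control 3 alone. Without control 2 only 1 of the 18 was called, and without degraded library 2 it was 2. Both of these families were also put together after the values were seen.

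Among the 14 called members of the epidermis, cuticle and trachea list were also genes of transcription factors and of cell adhesion. The tracheal POU factor gene vvl went from 110, 92.5 and 108 CPM to 197, 226 and 236 CPM, a rise of 1.08 ± 0.13 (adjusted p = 0.00752). The tracheal regulator trh went from 32.5, 29.7 and 27.8 CPM to 50.5, 55.1 and 59.5 CPM, a rise of 0.87 ± 0.13 (adjusted p = 0.015). For both genes the degraded libraries lay within a narrow band above all controls. The E-cadherin gene shg rose by 0.85 ± 0.11 (adjusted p = 0.00847), and ovo, which shapes epidermal denticles and also acts in the germline, by 0.85 ± 0.15 (uncertain, 68.8% of its span overlapped). The epidermal factor grh, at 201, 195 and 215 CPM in the controls and 244, 253 and 243 CPM in the degraded libraries, was not called (0.28, adjusted p = 0.159).

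The labelled tissue was checked with marker genes. All 10 muscle and mesoderm markers were detected in all 6 libraries, and their summed level ran from 36750 to 48478 CPM in the controls and from 34969 to 40353 CPM in the degraded libraries. Markers of epidermis and trachea summed to 1382 to 1598 CPM in the controls and 2579 to 2786 CPM in the degraded libraries. Of 7 tested, 5 were called higher and none was at 0. These 5, shg, verm, serp, trh and vvl, are genes already described above, so the sum adds no separate evidence of a rise. Neuronal markers summed to 591 to 685 CPM in the controls and 729 to 738 CPM in the degraded libraries, with 0 of 9 called. Glial markers summed to 294 to 297 and 329 to 332 CPM, with 0 of 6 called, and gut markers to 178 to 187 and 232 to 270 CPM, with 1 of 6 called. The gut markers did not move together. GATAe, fkh and mag changed by 0.67, 0.73 and 0.91, and Jon65Ai, Jon99Fi and Amy-p by -1.64, -1.50 and -0.045, with only fkh called. Salivary gland markers summed to 175 to 200 and 212 to 220 CPM with 0 of 4 called, and the 2 germline markers found to 10.1 to 16.6 and 8.77 to 11.7 CPM with 0 called. Whether nuclei of other tissues were carried along to a different degree in the 2 groups was not tested. In bulk RNA, fewer cells of a type and less RNA per cell cannot be told apart.

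Genes of the muscle itself were followed on several lists, whose counts of calls stand beside 4.47% called over all genes tested. At that share a list of this size would hold about 1 or 2 calls, so counts of 0 or 1 say nothing particular about these lists. Of 29 sarcomere and contractile genes tested, 0 were called by edgeR or limma-voom and 1 by DESeq2, with 6 at an unadjusted p under 0.05. The median was -0.16 (-0.30 against control 3 alone). The myosin heavy chain gene Mhc stood at 9634, 11634 and 14465 CPM in the controls and at 8296, 10800 and 11156 CPM in the degraded libraries, with overlapping groups and a change of -0.24 ± 0.19 (adjusted p = 0.488). The Projectin gene bt changed by -0.12 ± 0.15. Of 18 myoblast fusion genes and 23 genes of muscle excitation and calcium handling, 0 of each were called by edgeR, limma-voom or DESeq2, with 2 and 4 at an unadjusted p under 0.05 and medians of 0.05 and 0.02. Against control 3 alone the medians were -0.01 and -0.17, and of the 23 excitation and calcium genes 7 changes were positive and 16 negative, where 13 and 10 were so against all controls. Among 35 mesoderm and muscle identity factors 1 rose and 0 fell (median 0.26, and 0.16 against control 3 alone): the Iroquois factor gene caup, from 27.1, 26.8 and 29.8 CPM to 41.0, 47.1 and 52.0 CPM (0.74 ± 0.14, adjusted p = 0.0271). The mesodermal regulators Mef2 and twi changed by 0.25 ± 0.12 (adjusted p = 0.244) and 0.45 ± 0.15 (adjusted p = 0.117), with all degraded libraries above all controls for each; 60.8% of the span of twi is overlapped, which makes it uncertain.

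Several genes of the matrix and of muscle attachment rose. Of 26 genes of muscle attachment, integrins and matrix, 7 rose and 0 fell (median 0.33, and 0.16 against control 3 alone). The count rested on single libraries: 0 were called against control 3 alone, 0 without control 2, 3 without control 1, 11 without control 3 and 1 without degraded library 2. Ndg, which encodes the basement membrane protein nidogen, stood at 1346, 1392 and 2059 CPM in the controls and at 5493, 3740 and 3699 CPM in the degraded libraries. All degraded libraries lay far above all controls, degraded library 1 highest, with a rise of 1.43 ± 0.23 (adjusted p = 0.0185). Tig, an integrin ligand at muscle attachments, went from 1016, 1118 and 1329 CPM to 1919, 1938 and 1942 CPM, a rise of 0.74 ± 0.14 (adjusted p = 0.0277). The tendon matrix gene Tsp rose by 0.83 ± 0.16, its binding partner gene slow by 0.66 ± 0.14, the tendon gene Lrt by 0.84 ± 0.15 and the laminin gene LanB1 by 0.58 ± 0.12. The integrin genes mys and if changed by 0.40 ± 0.15 and 0.29 ± 0.15 and were not called.

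Of 26 genes of the heart and visceral mesoderm, 4 rose and 0 fell, with a median of 0.35 (0.14 against control 3 alone). Against control 3 alone, without control 2 and without degraded library 2 the count was 0, and without control 3 it was 11. Besides Ndg these were Fas3, an adhesion gene of the visceral mesoderm and of epithelia, with 268, 256 and 359 CPM in the controls and 556, 497 and 609 CPM in the degraded libraries (0.91 ± 0.16, adjusted p = 0.0243). The FGF receptor gene htl, which guides mesoderm migration, rose by 0.82 ± 0.17 (adjusted p = 0.0373). The pair-rule factor gene odd, also made in pericardial cells, rose by 0.76 ± 0.15 (adjusted p = 0.0297).

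Axon guidance and adhesion genes formed the list with the most calls. Of 32 tested, 15 rose and 0 fell, all 32 changes were positive, and the median was 0.60; against control 3 alone it was 0.43 with 31 positive and 0 called. Without control 2 also 0 were called, without control 1 the count was 3 and without degraded library 2 it was 2. The immunoglobulin adhesion gene ed went from 266, 260 and 286 CPM to 509, 496 and 541 CPM, a rise of 0.93 ± 0.11 (adjusted p = 0.00827). The leucine-rich repeat receptor gene Toll-7 went from 87.7, 86.9 and 91.2 CPM to 162, 162 and 156 CPM, a rise of 0.85 ± 0.10 (adjusted p = 0.00827). Both genes had nearly constant levels within each group. The midline repellent gene sli rose by 0.67 ± 0.14, its receptor genes robo2 and robo3 by 0.72 ± 0.16 and 0.72 ± 0.14, and the sorting gene comm, which lowers Robo at the cell surface, by 0.77 ± 0.14. The attractant gene NetA rose by 0.77 ± 0.17 and its receptor gene fra by 0.64 ± 0.12. Many genes of this list are also used outside neurons, in epidermis, trachea, muscle attachment or heart.

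Of 39 genes of neuronal differentiation and synapse, 0 rose and 1 fell by edgeR, near the share of calls over all genes, and 12 had an unadjusted p under 0.05. DESeq2 called 4 higher and 1 lower, and limma-voom 0 higher and 1 lower. The median was 0.09 (0.13 against control 3 alone), and 24 of the changes were positive. Of 25 neural precursor genes and 16 glial genes 0 were called by edgeR or limma-voom, and 2 and 1 by DESeq2. At an unadjusted p under 0.05 there were 7 and 3, and the medians were 0.17 and 0.03, or 0.28 and 0.14 against control 3 alone. A list of 14 receptor genes held 5 glutamate receptor subunits of the neuromuscular junction and 9 nicotinic acetylcholine receptor subunits, which in the fly are known mainly from neurons. Of these, 0 were called by edgeR or limma-voom and 3 by DESeq2, with 7 at an unadjusted p under 0.05. Their median was 0.46 with 12 positive, and 0.06 with 7 positive against control 3 alone. The gene that fell on the neuronal list was Gad1, the enzyme of GABA synthesis, from 64.7, 75.9 and 77.0 CPM to 42.7, 42.3 and 36.4 CPM (-0.84 ± 0.13, adjusted p = 0.0181). The neuronal RNA-binding protein gene elav, 98.6% overlapped and so uncertain, changed by -0.04 ± 0.12 (adjusted p = 0.866).

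Some signalling genes rose. Of 50 genes of Notch, Wnt, BMP, Hedgehog, EGF and FGF signalling, 10 rose and 0 fell, with a median of 0.36 (0.29 against control 3 alone). The count was 0 against control 3 alone and without control 2, 3 without control 1, 18 without control 3 and 1 without degraded library 2. The BMP receptor gene tkv went from 113, 116 and 125 CPM to 222, 209 and 227 CPM, a rise of 0.90 ± 0.11 (adjusted p = 0.00818). The Wnt inhibitor gene Notum went from 11.6, 11.7 and 15.2 CPM to 24.3, 24.7 and 32.2 CPM, a rise of 1.07 ± 0.18 (adjusted p = 0.0193). In neither gene did the groups overlap. Among ligands, the BMP gene gbb rose by 0.72 ± 0.16, Wnt4 by 0.74 ± 0.14, Wnt5 by 0.71 ± 0.16 and the Notch ligand gene Ser by 0.70 ± 0.12. Among receptors, fz2 of the Wnt pathway rose by 0.71 ± 0.12 and Egfr by 0.65 ± 0.12. Of 19 Polycomb group genes 0 were called by edgeR, limma-voom or DESeq2, with 3 at an unadjusted p under 0.05 and a median of 0.11. Of 22 trithorax group and co-activator genes 1 rose, the methyltransferase gene ash1 (0.61 ± 0.12, adjusted p = 0.0353 by edgeR). The median of that list was -0.02, and 0.10 against control 3 alone.

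**Figure D3:**
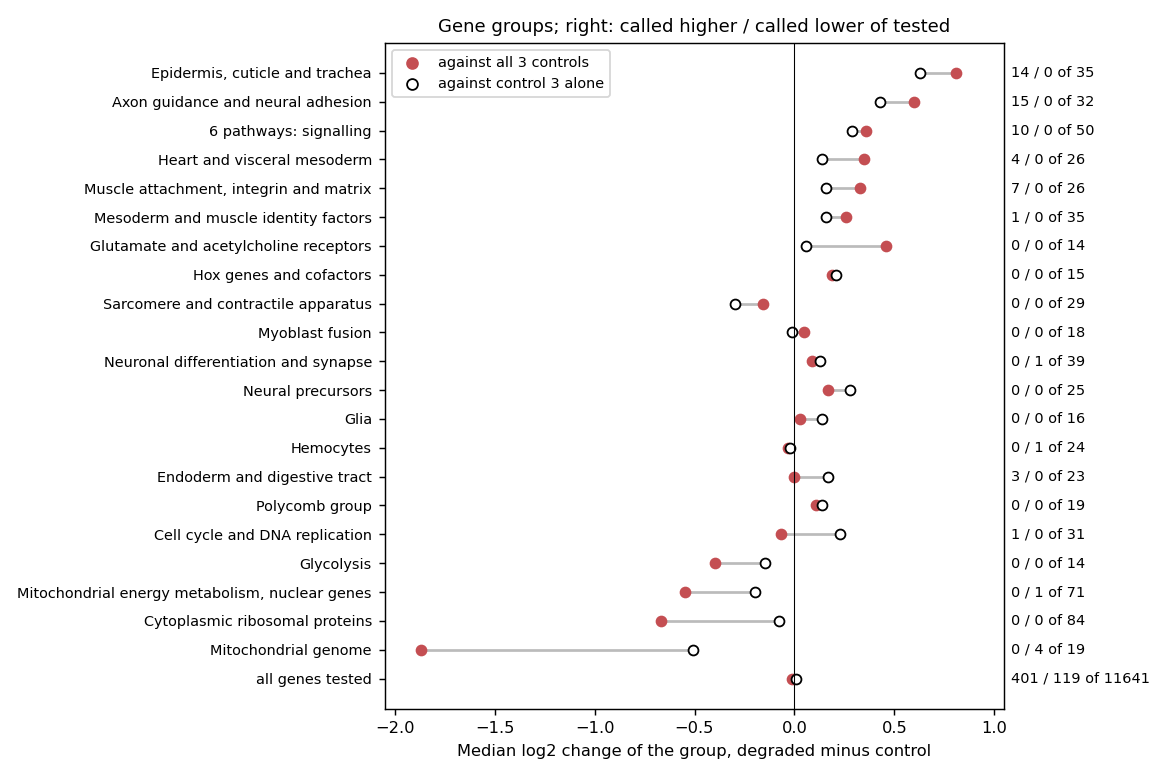
Median log2 change of each gene group against all 3 controls (filled) and against control 3 alone (open), with the members called higher and lower of those tested at the right. The epidermal and axon guidance lists stay at 0.63 and 0.43 with control 3 alone, while ribosomal protein genes move from -0.67 to -0.08 and the mitochondrial genome from -1.87 to -0.51.

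Genes of energy metabolism and translation lay lower in the degraded libraries, most strongly against controls 1 and 2. All 84 ribosomal protein genes tested had a negative change, with a median of -0.67. Of these, 0 were called by edgeR or limma-voom and 42 by DESeq2, with 74 at an unadjusted p under 0.05. Against control 3 alone the median was -0.08 and 21 of the changes were positive. The 71 nuclear genes of mitochondrial energy metabolism had a median of -0.55, with 1 called lower, the complex I gene ND-19 at -0.69 ± 0.15. Their median against control 3 alone was -0.20, with 69 negative changes. The 19 mitochondrial genes tested had a median of -1.87 with 4 called lower. For these the median against control 3 alone was -0.51, with 16 negative changes. The cytochrome oxidase gene mt:CoI stood at 5319, 3601 and 1252 CPM in the controls and at 912, 866 and 752 CPM in the degraded libraries (-2.01 ± 0.44, adjusted p = 0.0453). Control 3 was far nearer to the degraded libraries than to control 1. The mitochondrial rRNA gene mt:lrRNA showed the same order, with 41548, 23667 and 10162 CPM against 7239, 6518 and 6038 CPM. The metallothionein gene MtnA, which binds metal ions, also followed it, at 292, 192 and 79.7 CPM against 51.4, 49.98 and 30.3 CPM (-2.10 ± 0.43, adjusted p = 0.0375). Whether the cytoplasm or mitochondria carried along with the nuclei set these values was not tested.

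Other falls were about as large against control 3 as against all controls. CG6362, at 209, 205 and 231 CPM in the controls, stood at 101, 106 and 91.4 CPM in the degraded libraries (-1.11 ± 0.12, adjusted p = 0.0045). CG10226 went from 72.7, 71.7 and 73.1 CPM to 36.1, 33.7 and 30.03 CPM (-1.12 ± 0.12, adjusted p = 0.00475). CG32461 went from 8.95, 8.70 and 11.5 CPM to 2.95, 3.33 and 3.27 CPM (-1.60 ± 0.18, adjusted p = 0.00591). In each of these the controls were close to one another and the degraded libraries lay far below, with log2 differences from control 3 of -1.21, -1.12 and -1.70. CG6362 and CG32461 were also called against control 3 alone.

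Genes of blood cells and immunity were among the falls. Hml, which encodes the clotting protein hemolectin of plasmatocytes, stood at 289, 271 and 195 CPM in the controls and at 134, 86.5 and 59.9 CPM in the degraded libraries, a change of -1.43 ± 0.29 (adjusted p = 0.0353). The other 23 hemocyte genes tested were not called, and the list had a median of -0.03. The 5 hemocyte markers summed to 518 to 686 CPM in the controls and to 425 to 522 CPM in the degraded libraries. The Toll-induced peptide gene BomS1 went from 13.6, 14.9 and 12.4 CPM to 5.86, 4.68 and 2.51 CPM (-1.65 ± 0.28, adjusted p = 0.021). The antibacterial peptide gene DptB, near 1 CPM in the controls, fell to at most 0.162 CPM (adjusted p = 0.0193 by edgeR). At that level each degraded library held fewer reads than the minimum count, so DptB could pass that filter only through the controls. Neither its adjusted p nor the size of its fall supports more than a description. BomS1 and DptB were the 2 of 19 immune response genes tested that fell, and 0 rose. Peritrophin-15a, a gut lining gene, stood at 2.17, 28.6 and 9.86 CPM in the controls and at 0.566, 0.568 and 0.445 CPM in the degraded libraries (-4.68 ± 0.90, adjusted p = 0.0319), and its controls differed widely from each other. The larval serum protein gene Lsp2 of the fat body rose from 0.391, 0.512 and 0.765 CPM to 2.79, 3.09 and 2.14 CPM (2.28 ± 0.31, adjusted p = 0.00982; uncertain, 84.6% of its span overlapped). Fat body markers summed to 2368 to 2914 CPM in the controls and 2997 to 3781 CPM in the degraded libraries, nearly all of it apolpp.

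**Figure D4:**
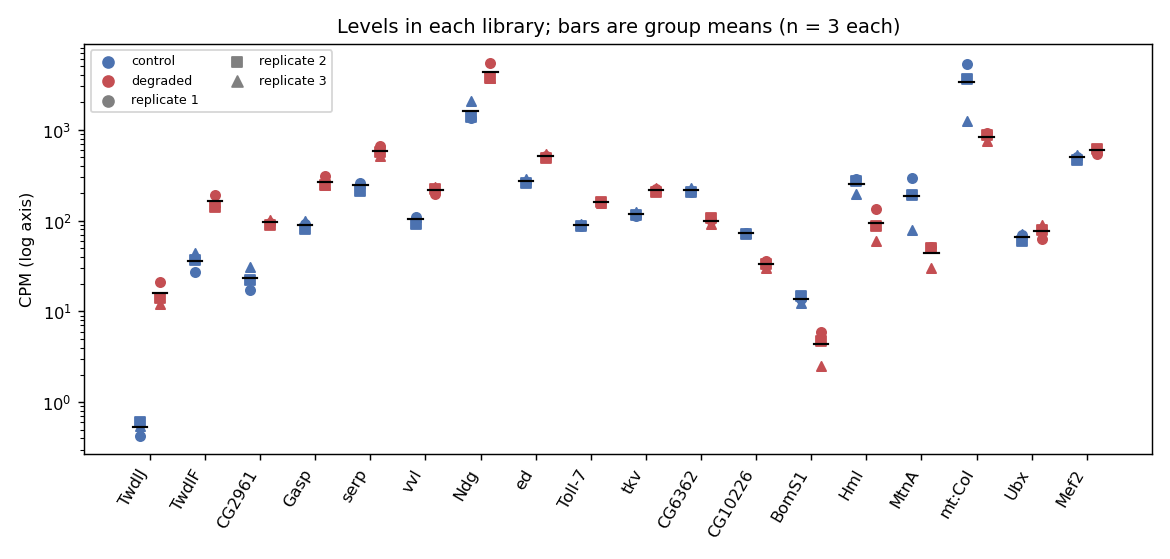
CPM on a log axis of 18 genes in each library, with control libraries in blue and degraded libraries in red, 1 symbol per replicate number and bars at group means (n = 3 each). The groups are apart for every gene shown except Ubx; for mt:CoI and MtnA the third control lies near the degraded libraries, whereas for CG6362 and CG10226 the controls lie together.

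The steepest rises stood side by side on chromosome arm 2L. Of 13 genes called higher by at least 3 on the log2 scale, 8 lay within 50 kb of Vm26Aa, a gene of the vitelline membrane of the egg, at 5959596 on 2L. In that window 21 genes were tested, and 9 were called higher and 0 lower. The 9 genes spanned 42.1 kb, from 5922876 to 5964951, and rose by 2.45 to 5.76. For 6 of them no control held more than 10 reads, so they could pass the minimum count only through the degraded libraries, and neither the count of calls nor the size of these fitted changes supports more than a description. The value of 5.76, for asRNA:CR43926, rests on 2 reads in the 3 controls together. Only 1 other window of this size, among those centred on called genes and not overlapping, held more than 4 called genes. This region was picked out after the values were seen.

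Vm26Aa stood at 0.426, 1.02 and 0.510 CPM in the controls and at 15.4, 16.6 and 17.5 CPM in the degraded libraries (4.62 ± 0.30, adjusted p = 0.000234). Its neighbour dsf, which encodes a nuclear receptor known for its role in sexual behaviour, went from 0.107, 0.224 and 0.128 CPM to 4.41, 5.89 and 5.58 CPM (5.04 ± 0.32, adjusted p = 0.000234). CG13999 went from 0.782, 0.703 and 0.723 CPM to 7.36, 7.45 and 8.08 CPM (3.37 ± 0.19, adjusted p = 0.000234). All controls, control 3 included, held these genes near 0, and all degraded libraries expressed them. The same held for CG9016, CG13998, Vm26Ab and Vm26Ac, each under 0.3 CPM in all controls and at 1.86 to 5.25 CPM in the degraded libraries. The eggshell gene psd at the far end had 1.53, 7.87 and 7.61 CPM in the controls and 31.2, 30.2 and 31.3 CPM in the degraded libraries. The ninth, asRNA:CR43926, had 0, 0.0639 and 0 CPM in the controls and 1.09, 2.34 and 1.17 CPM in the degraded libraries. Other genes overlap 3.3% of its span, and whether its reads were counted by strand is not given.

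Genes with higher levels between and beside them were not called. Gpdh1, a glycerol phosphate dehydrogenase gene that lies between dsf and CG13999, changed by -0.33 ± 0.16 (adjusted p = 0.259), and CG9044 next to it by 0.07 ± 0.14 (adjusted p = 0.805). The profilin gene chic, 12.5 kb from Vm26Aa, changed by 0.07 ± 0.11 (adjusted p = 0.775). CG13992, the first tested gene beyond psd, held 2.45, 10.7 and 9.10 CPM in the controls and 6.31, 4.82 and 4.20 CPM in the degraded libraries (adjusted p = 0.524).

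In the wild-type mesoderm libraries of stages 14-17, which share no sample with this comparison and were normalised separately, Vm26Aa stood at 13.5 and 16 CPM. There dsf stood at 6.51 and 7.01 CPM, Vm26Ab at 6.03 and 4.77 CPM and CG13999 at 20.2 and 17.2 CPM. The degraded libraries were thus near the wild-type values for Vm26Aa, dsf and Vm26Ab, and the controls were below them. CG32305, a gene on 3L that was at 25.6 and 31.7 CPM in these wild-type libraries, showed the same order, at 0.533, 0.608 and 1.36 CPM in the controls and 9.502, 13.2 and 19.4 CPM in the degraded libraries (4.10 ± 0.41, adjusted p = 0.00444). TwdlJ did not: it stood at 0.635 and 0.450 CPM in wild type, as in the controls. Whether the 2 genotypes differ on 2L outside the transgenes named in the labels was not tested.

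**Figure D5:**
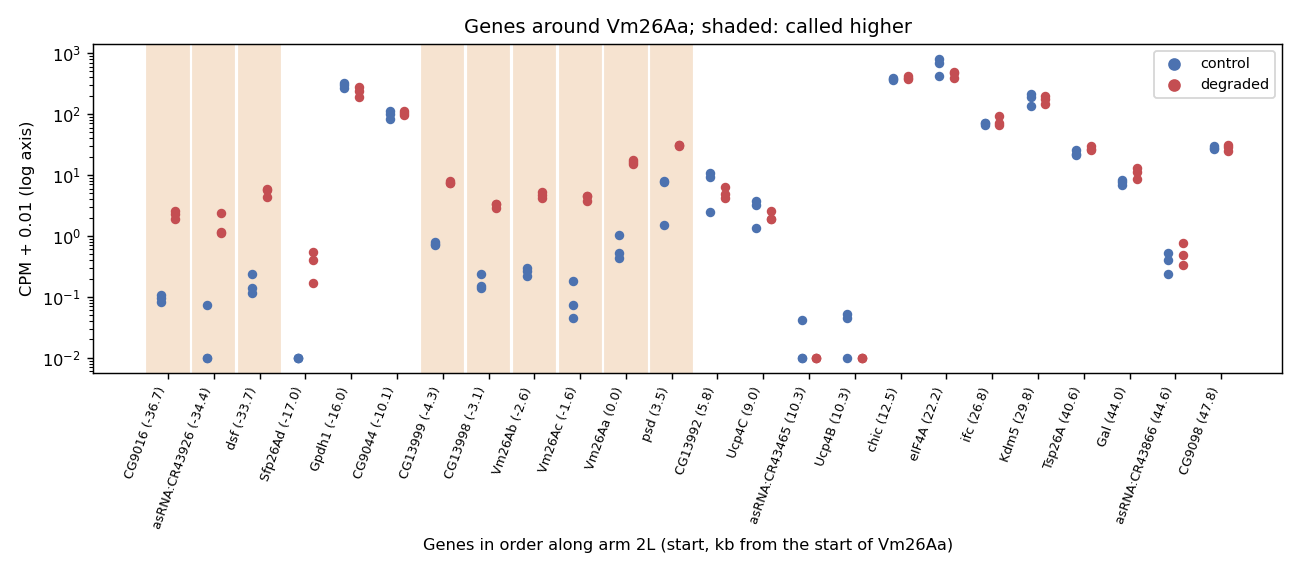
CPM + 0.01 on a log axis in the 3 control (blue) and 3 degraded (red) libraries for the 24 genes within 50 kb of Vm26Aa, in order along the arm, with the distance of each start from that of Vm26Aa in kb. The 9 shaded genes were called higher; Gpdh1 and CG9044 between them have levels near 100 CPM or more that overlap between groups.

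The direction over all 401 rises and 119 falls was set against wild-type levels in the same way. Of 354 called-higher genes with a wild-type level in stage 14-17 mesoderm, 273 (77.1%) had a mean nearer to wild type in the degraded than in the control libraries. Of 100 called-lower genes, 73 (73%) did, and among genes not called 50.7% did. The median distance of the called-higher genes from wild type was -1.64 on the log2 scale in the controls and -0.61 in the degraded libraries. For called-lower genes it was 1.47 and 0.47. Genes not called stood at -0.50 and -0.54, a median offset that does not hold for single genes. Ubx, at 60.3 to 89.8 CPM in the control and degraded libraries, stood at 367 and 449 CPM in wild type. The muscle gene bt, at 12205 to 16216 CPM, stood at 14479 and 17153 CPM. The wild-type tables also hold another gene set, of 14156 IDs against 15682, in which the nested genes w and y had 0 reads. The shares nearer to wild type thus do not compare like libraries and are a description only. The libraries were prepared as separate sets, and no test was made across them.

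Gene sets taken from the wild-type libraries gave a view of tissue and stage. Over all genes tested 3.44% were called higher and 1.02% lower. Of 1438 genes at least 2-fold higher in mesoderm than in neurons at stages 14-17, 115 (8.0%) rose and 7 (0.487%) fell, with a median of 0.12. Of 1416 genes at least 2-fold higher in neurons, 2 (0.141%) rose and 30 (2.12%) fell, with a median of -0.36. Against control 3 alone these medians were -0.04 and -0.00, so the offset of the sets rested on controls 1 and 2. Of 2156 genes that rise in wild-type mesoderm from stages 10-13 to 14-17, 199 (9.23%) rose and 32 (1.48%) fell. Of 1346 that decline with stage, 22 (1.63%) rose and 11 (0.817%) fell. The medians of the stage sets were 0.08 and -0.09, and 0.09 and 0.11 against control 3 alone.

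Of 174 long and other non-coding RNAs tested, 5 (2.87%) rose and 1 fell, and of 39 antisense RNAs 1 (2.56%) rose and 1 fell. These shares were near the 3.44% higher and 1.02% lower over all genes. The small nucleolar RNA snoRNA:Me18S-U1356c, on 3L within the host gene Uhg8, stood at 0.284, 0.224 and 0.298 CPM in the controls and at 4.21, 3.37 and 3.35 CPM in the degraded libraries (3.75 ± 0.27, adjusted p = 0.000385). Every control held fewer reads of this RNA than the minimum count, so it could pass that filter only through the degraded libraries. Neither its adjusted p nor the size of its fitted change supports more than a description. The groups were far apart while the host Uhg8 changed by -0.24 ± 0.16 (adjusted p = 0.381), though a gene nested in another is uncertain here. In all, 2 of 134 small nucleolar RNAs tested rose and 0 fell. The intergenic RNA lncRNA:CR43126, close to fkh, went from 1.28, 0.831 and 0.850 CPM to 2.59, 2.70 and 3.76 CPM (1.60 ± 0.28, adjusted p = 0.0214), and fkh, a forkhead factor gene of the gut and salivary gland, rose by 0.73 ± 0.12 (adjusted p = 0.0193). The nested RNAs lncRNA:CR43605 and lncRNA:CR32385 rose by 1.18 ± 0.17 and 0.92 ± 0.15, and their hosts CG33144 and Galphai were not called (0.43 and 0.01). The dosage compensation RNA lncRNA:roX1 stood at 6773, 6542 and 8670 CPM in the controls and 10413, 9253 and 10119 CPM in the degraded libraries (0.44 ± 0.16, adjusted p = 0.136). The groups did not overlap, and the change was not called.

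Of 7 eye colour and body pigment genes used as markers of transgenes or stocks, 2 rose and 0 fell, with a median of 0.06 and with 3 negative values down to -0.59. Of the 2 that rose, 0 were called without control 1, without control 2, without degraded library 2 or against control 3 alone. The eye colour gene w, copies of which are carried by many transgenes as a marker, went from 320, 333 and 396 CPM to 549, 586 and 562 CPM (0.69 ± 0.13, adjusted p = 0.0272), and its host kirre was not called (0.48, adjusted p = 0.225). The pigment gene y went from 21.9, 21.3 and 21.4 CPM to 62.7, 44.8 and 34.8 CPM (1.14 ± 0.21, adjusted p = 0.0264), and its host CG32816 rose by 0.72 ± 0.17 (adjusted p = 0.0487). Both genes lie wholly within another gene and are uncertain. The degraded genotype carries the Mef2 driver in addition, and how many marker copies each genotype has is not given in the labels.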

How the data were processed

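The deposited files hold raw read counts, 1 whole number per gene. Per the submitters' processing notes the authors counted with HTSeq and also used FastQC, and BDGP6 and dm6 are listed as builds. The aligner, versions, annotation and strand setting were not given in the sources used here. Reads aligned to more than 1 place (42.8 to 48.6% of the total), in no gene (7.4 to 8.9%) or ambiguous (0.8%) did not enter library sizes or tests. Of 15682 gene IDs, 95.7% matched Ensembl release 115; unmatched genes stayed in the fit and are not named. Genes at least 40% overlapped by others are called uncertain.

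Low genes were removed with filterByExpr (minimum count 10, minimum total 15). edgeR 4.0.16 was run with TMM scaling and its quasi-likelihood test, Benjamini-Hochberg adjustment at 0.05 and 4 residual degrees of freedom (common biological coefficient of variation 0.191). DESeq2 1.42.0 and limma 3.58.1 (R 4.3.3) served as alternatives, and tables and plots were made in Python 3.11.15. The fits were tested on simulated counts with the same spread for every gene and libraries of a group that differed only in depth. That check does not cover the difference among the controls seen here. Wild-type gene sets came from a fit of the 8 wild-type libraries alone. Named genes are the largest and most significant changes with non-overlapping libraries and at least 10 CPM (3 CPM for non-coding genes), fixed genes such as Ubx, and leading members of each gene list; a gene outside this rule is said to be chosen after its values were seen, or stands as an example of its list. The comparison, lists and rule were chosen with earlier results of these data known. The gene slmb is not analysed here. No 2 libraries were identical.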

Additional observations from a re-analysis of the deposited data

How the results depend on the processing

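The 520 calls (401 higher, 119 lower) stayed within 1.5 times under DESeq2 size factors, library totals, both other filters, limma-voom and a table without the mitochondrial genome. DESeq2's own test gave 1212 calls (718 higher, 494 lower). The labels do not say whether replicate numbers pair the samples, and the values do not settle it. Deviations of same-numbered libraries correlated at 0.217, 0.0887 and 0.272. Those of differently numbered libraries ran from -0.262 to 0.102, the highest for control 2 with degraded library 1. A fit with a replicate block gave 1205 calls (731 higher, 474 lower). Leaving out 1 library at a time gave 46 to 1696 calls (43 to 781 higher, 3 to 915 lower), the lowest without control 2 and the highest without control 3. With control 3 as the only control, where its spread is assumed to be that of the degraded libraries, 31 genes were called (18 higher, 13 lower). All 14 libraries in 1 fit gave 175 calls (130 higher, 45 lower). Of the 69 named genes that were called, 0 changed direction in these fits, which their lack of overlap between groups all but fixed in advance. Among these 69, 17 stayed called in every fit that left out 1 library. The cause of these differences was not tested. Depth limits genes under about 1 CPM, where a control value rests on few reads.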

Other observations

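Groups described here were picked after their values were seen and carry no test as groups. Of 50 genes of glycosylation, GPI anchoring and quality control in the endoplasmic reticulum, 10 were called higher and 0 lower. The median was 0.36 (0.30 against control 3 alone, with 47 positive). Without control 2 the count was 2, and without degraded library 2 it was also 2. Among the 10 was Cnx14D (3.14), with 0.178, 0.288 and 0.085 CPM in the controls. Each control held fewer reads of it than the minimum count, so it could pass that filter only through the degraded libraries. Its call is therefore a description only. The mannosyltransferase gene Alg3 stood at 12.2, 11.1 and 14.0 CPM in the controls and 34.5, 27.2 and 30.7 CPM in the degraded libraries (1.31 ± 0.15, adjusted p = 0.00752; uncertain, 62.7% of its span overlapped). PIG-Wb of GPI anchor synthesis rose by 1.10 ± 0.18 and the oligosaccharyltransferase gene Stt3B by 0.69 ± 0.13. All these adjusted p-values are from edgeR's quasi-likelihood test.

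Another 3 called-lower genes were also picked after their values were seen. The S-adenosylmethionine synthetase gene Sam-S went from 960, 1181 and 1030 CPM to 674, 653 and 535 CPM (-0.77 ± 0.14, adjusted p = 0.0287). The folate gene pug went from 252, 410 and 267 CPM to 173, 144 and 113 CPM (-1.11 ± 0.23), and the acyltransferase gene mino from 141, 191 and 168 CPM to 97.3, 85.3 and 63.8 CPM (-1.02 ± 0.18). For these genes control 3 lay with the other controls.

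A second neighbourhood with more than 4 called genes lay on 3R around CG11893, where 4 of 35 genes tested within 50 kb were called higher and 2 lower. CG11902 there went from 12.7, 15.4 and 16.2 CPM to 70.03, 76.6 and 82.4 CPM (2.37 ± 0.15, adjusted p = 0.000234), and rha, the next gene on the same strand, from 2.02, 1.95 and 2.25 CPM to 12.4, 12.9 and 14.9 CPM (2.69 ± 0.17, adjusted p = 0.000234). CG10513 in the same window fell from 27.5, 37.2 and 5.65 CPM to 4.08, 2.38 and 1.54 CPM (-3.14 ± 0.66, adjusted p = 0.0398).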
